A study of Caenorhabditis elegans with 2 samples.

Results

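Regions of F52B5.7 binding at tRNA genes outside the X chromosome were taken from a chromatin immunoprecipitation sequencing (ChIP-seq) experiment in Caenorhabditis elegans. A region was included when its summit, the position of highest signal, lay in a nuclear autosomal tRNA gene or within 250 bp of one. Of 30000 candidate regions in the list pooled over both replicates, 257 met this rule, and 90 of the 257 were also in the optimal list, the shorter list that the authors kept after comparing the replicates. The 5 autosomes carry 336 of the 612 nuclear tRNA genes. A tRNA gene is called bound here when an optimal summit met the same rule, candidate only when it had a weaker pooled region alone, and without candidate when it had none.

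All animals were strain OP606, which carries unc-119(tm4063) on chromosome III and the integrated transgene wgIs606, from which F52B5.7 is made as a fusion with a C-terminal GFP-FLAG tag. Whole young adults of mixed sex were collected 63 h after synchronisation as starved L1 larvae, and chromatin was sheared by sonication and precipitated with an antibody against GFP. There were 2 biological replicates, which form 1 group, and no strain without the tag is part of the comparison, so a region shows signal of the tagged protein over the authors' control in 1 transgenic line. The promoter that drives the transgene and the number of its copies are not given in the labels. Whole animals were used, so the cells in which a tRNA gene was occupied cannot be told apart, and the control experiment that the labels name was not analysed here.

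Genes for tRNAs are transcribed by RNA polymerase III from promoters that lie inside the gene. The A box, near the start of the gene, and the B box, which encodes the T arm of the tRNA, are recognised by the factor TFIIIC, which brings TFIIIB and then the polymerase to the gene. Transcription ends at a run of T residues just after the gene. Nematode tRNA genes occur in many identical copies scattered over the genome, often in introns of other genes, so genes with the same internal promoter lie in unlike surroundings.

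The first pair of sequences below shows identical genes with opposite outcomes. Both encode tRNA-Pro with the anticodon TGG in DNA letters, and both are printed with 40 bases on each side. T23F1.t2 was bound and ZK970.t1 had no candidate. The next 4 are the genes nearest to the strongest other summits, and the last pair are the longest genes, both for tRNA-Leu with an intron (F22B7.t1, not shown, is as long as the second), each chosen among genes with no copy on 1 autosome that was left out of the sequences shown. Sequences are from the ce11 assembly, are written 5′ to 3′ on the strand of the gene, and carry in capitals the match to the B box pattern GTTCNANNC that lies nearest the 3′ end.
T23F1.t2 (chrV:15465185-15465336, minus strand): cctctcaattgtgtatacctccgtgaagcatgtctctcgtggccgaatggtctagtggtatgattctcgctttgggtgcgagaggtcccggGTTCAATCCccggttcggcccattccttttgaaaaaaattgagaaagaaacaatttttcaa
ZK970.t1 (chrII:10302359-10302510, plus strand): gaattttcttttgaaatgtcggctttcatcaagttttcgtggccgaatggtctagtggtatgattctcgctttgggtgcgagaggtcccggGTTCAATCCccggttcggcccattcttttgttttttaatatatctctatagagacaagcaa
T03E6.t1 (chrV:16592237-16592308, minus strand): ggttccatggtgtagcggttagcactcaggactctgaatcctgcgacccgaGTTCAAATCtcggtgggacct
F10C1.t1 (chrII:5782212-5782282, minus strand): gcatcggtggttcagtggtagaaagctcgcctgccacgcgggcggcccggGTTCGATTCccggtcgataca
F57F5.t1 (chrV:12002176-12002260, plus strand): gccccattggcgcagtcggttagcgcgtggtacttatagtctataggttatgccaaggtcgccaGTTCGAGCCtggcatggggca
K03B8.t1 (chrV:11412235-11412307, minus strand): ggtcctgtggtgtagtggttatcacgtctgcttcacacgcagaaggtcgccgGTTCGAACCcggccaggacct
C14B9.t2 (chrIII:8109603-8109724, plus strand): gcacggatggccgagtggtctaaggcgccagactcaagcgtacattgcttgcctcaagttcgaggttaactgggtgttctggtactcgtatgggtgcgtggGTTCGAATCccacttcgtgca
B0285.t1 (chrIII:4362524-4362643, plus strand): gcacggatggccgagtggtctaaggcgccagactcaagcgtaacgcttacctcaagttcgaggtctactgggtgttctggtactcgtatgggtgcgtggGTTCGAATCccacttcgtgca

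Both Pro genes share all 72 bases of the gene, so they differ in the flanks alone. The summit that made T23F1.t2 bound lay downstream of it and is shared with T23F1.t1, a tRNA-Lys gene 67 bp away. This signal therefore cannot be assigned to the Pro gene alone. Of the 31-base words in the flanks of 250 bp, 87.5% occurred once in the genome at T23F1.t2 and 68% at ZK970.t1, and the part of read placement in the missing region of ZK970.t1 was not tested. The Leu genes share all 84 bases that remain after removal of the intron, which is 38 bases long in C14B9.t2 and 36 bases long in B0285.t1. C14B9.t2 was bound, at pooled rank 561, and B0285.t1 was candidate only, at rank 1939.

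About 1 in 3 autosomal tRNA regions were in the optimal list, many times the share of other regions. Of the 257 regions 90 were optimal, which is 35% (exact Clopper-Pearson 95% interval 29.2 to 41.2; intervals here cover counting error only, and regions are not replicates). Over all pooled candidates the share was 3.44%, and over autosomal candidates away from tRNA genes it was 3.08%. On X 75 of 194 tRNA regions were optimal (38.7%, 31.8 to 45.9), a difference of autosomes minus X of -3.64 percentage points with a Newcombe 95% interval of -12.6 to 5.27, which includes 0.

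Counted by gene, 97 of the 336 autosomal tRNA genes were bound (28.9%, 24.1 to 34). A further 149 were candidate only (44.3%) and 90 had no candidate (26.8%). On X 86 of 276 were bound (31.2%, 25.7 to 37). Among autosomal snoRNA genes, which encode guides for the modification of other RNAs, 63 of 313 were bound (20.1%, 15.8 to 25), and among autosomal protein-coding genes 255 of 17242 had an optimal summit within 250 bp of a transcription start site (TSS), or 1.48%. Over protein-coding genes of all chromosomes this share was 1.34%. The window for RNA genes spans the gene body as well, which the window around a TSS does not.

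Optimal tRNA regions had a median signal near that of other optimal regions, with 1 among the 100 strongest. The signal value is the authors' own score per region and carries no stated scale. The 90 optimal tRNA regions ranged from 114.9 to 310.1 with a median of 149.1 (quartiles 133 and 171.3). The 867 optimal regions away from tRNA genes, X included, ranged from 114.6 to 2954.4 with a median of 143.9 (quartiles 126.2 and 184.6). Among the 100 strongest pooled regions 1 was an autosomal tRNA region. They made up 26 of the next 244 regions (10.7%), 40 of the 344 that followed (11.6%) and 23 of the last 344 optimal regions (6.69%). Over an equal number of regions just below the optimal list the share was 3.29%, and beyond rank 10000 it was 0.275%.

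The strongest region lay at T03E6.t1, a tRNA-Gln gene with the anticodon CTG. Its signal was 310.1 in the pooled list at rank 42, 178.1 in replicate 1 at rank 31 and 143 in replicate 2 at rank 65, so it was high in both. T03E6.t1 is 1 of 3 identical autosomal genes, and the other two, Y4C6B.t1 and F08G5.t3 on chromosome IV, had no pooled candidate, although Y4C6B.t1 had a region at rank 1274 in replicate 2. F10C1.t1, a tRNA-Gly gene with a sequence of its own, followed at rank 104 with a signal of 240.2, and ranked 60 and 181 in replicates 1 and 2. F57F5.t1, a tRNA-Ile gene with an intron of 11 bases, was at rank 153 with 217.9, and ranked 92 and 501 in the replicates.

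The other 9 of the 12 strongest regions had pooled signals from 199.4 to 214.6. In 4 of them the replicates were close in rank. T04D3.t2 (Gly, pooled rank 174) ranked 198 and 205, T09B4.t1 (Ile, 187) ranked 213 and 195, F52C9.t1 (Thr, 177) ranked 183 and 290, and the region shared by Y22D7AL.t3 and Y22D7AL.t4 (Met and Glu, 206) ranked 214 and 284. Others leaned on 1 replicate. The region of rte-2 (Glu, pooled rank 162) ranked 94 in replicate 1 and 1143 in replicate 2, and F35H8.t1 (Arg, 171) ranked 112 and 440. The opposite order held at T15B12.t1 (Met, 186), with ranks of 505 and 85, at the region shared by T23F1.t1 and T23F1.t2 (Lys and Pro, 190), with 556 and 106, and at F56F3.t1 (Arg, 172), with 464 and 102. T04D3.t2, T09B4.t1 and rte-2 lie on chromosome I, F35H8.t1 on II, F52C9.t1, T15B12.t1, F56F3.t1 and the Y22D7AL pair on III and the T23F1 pair on V. Of the 12, T04D3.t2 and T15B12.t1 lie inside a protein-coding gene on its opposite strand (gcy-35 and T15B12.1), F52C9.t1 lies inside F52C9.5 on the same strand, and the rest lie outside protein-coding genes.

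At the edge of the optimal list the signals ran on without a gap. The 3 weakest optimal regions were C56G7.t1 (Lys, 116.3), C14B9.t1 (Met, 115.6) and Y49E10.t1 (Gln, 114.9), at ranks 998, 1013 and 1028. The 3 strongest outside it were B0228.t1 (Gln, 114.2), B0244.t2 (Leu, 112.8) and K04A8.t3 (Cys, 111.7), at ranks 1042, 1084 and 1111. Bound and candidate only genes are divided by a threshold on a continuous scale.

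About 1 in 2 optimal tRNA regions were strong in both replicates taken alone. A region is called strong in a replicate when it ranks there within the length of the optimal list. The summits of 46 of 90 lay in such a region of both replicates (51.1%, 40.3 to 61.8), against 45.1% of the optimal regions away from tRNA genes and 1.74% of all pooled candidates. A further 18 were strong in replicate 1 alone, 17 in replicate 2 alone, and 9 in neither. With lists of 50% of that length the share was 21.1%, and with lists 2 times as long it was 76.7%. All 90 had a candidate in replicate 2 and 82 had one in replicate 1. The optimal list was made from the same libraries, so this overlap is in part built in.

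The replicates ranked tRNA regions alike over the whole range of signal but less so within a class. Spearman's rho between the replicates' signal values was 0.571 over the 190 regions with a candidate in both. It was 0.144 over the 82 optimal ones and 0.067 over the 108 others, which are each cut from a narrow range of signal, and 0.273 over 832 optimal regions away from tRNA genes. Some replicate regions matched more than 1 pooled summit, and with each replicate region used once rho was 0.61 over 177 regions, 0.144 over the 82 optimal ones and 0.0623 over 95 others. The order of bound tRNA genes among themselves thus differed between the replicates. The median signal of optimal regions was 78.3 in replicate 1 and 71.8 in replicate 2, and that of the others 41 and 40.6.

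**Figure D1:**
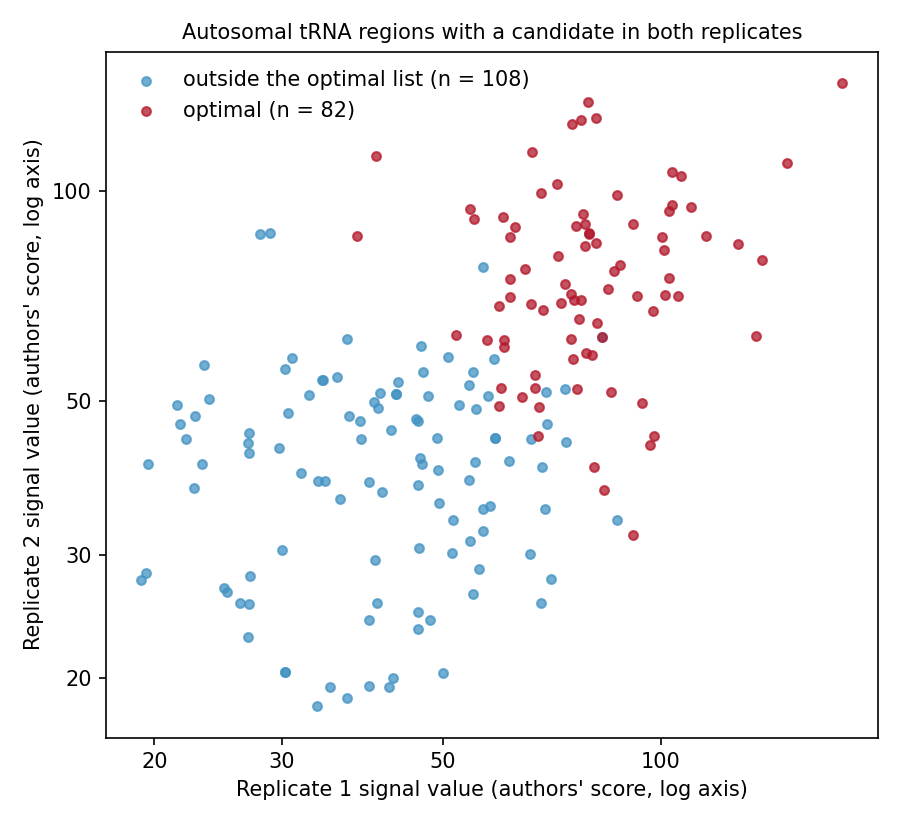
Signal value (the authors' score, log axes) in replicate 1 and replicate 2 of each autosomal tRNA region with a candidate in both, with 82 optimal regions in red and 108 regions outside the optimal list in blue. The classes are divided by a threshold on a continuous scale of pooled signal from the same libraries, and their points mix. Within each class the replicates' values are spread widely, with a rho of 0.144 in the red points and 0.067 in the blue.

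Some tRNA genes without a pooled candidate had a strong region in 1 or both of the replicate lists. Of the 90 such genes 10 had a region in replicate 1, 26 had one in replicate 2 and 58 had one in neither. In 8 of them it was strong by the same rule. F44A2.t1, a tRNA-Ala gene, had a region at rank 66 in replicate 2 and none in replicate 1. F56F4.t2, a tRNA-Lys gene, had regions at rank 308 in replicate 1 and rank 557 in replicate 2, and the nearest pooled summit lay 719 bp away. At M01E10.t1, a tRNA-Glu gene at rank 538 in replicate 2, the nearest pooled summit lay 281 bp away, just outside the window. The same replicate 2 region served its neighbour M01E10.t2, which was candidate only at rank 1385.

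Most optimal summits lay in the tRNA gene or within 50 bp of it. Regions were chosen by a summit in the gene or within 250 bp on either side, so a median near the gene is in part built in. Measured along the strand of the gene, optimal summits lay at a median of 29.5 bp from its 5′ end (quartiles 3.75 and 57), and typical genes are 72 bases long. Of the 90, 53 lay inside the gene (58.9%), 21 upstream and 16 downstream, and 85 were no more than 50 bp from the gene (94.4%, 87.5 to 98.2). The B box is centred at a median of 56.5 bp, and the summits lay at a median of -25 bp from it, toward the 5′ end, with quartiles of -53 and 2.25. Optimal tRNA summits on X had a median of 22 bp and were within 50 bp in 70 of 75 cases.

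Regions outside the optimal list lay within 50 bp of the gene less often. Of these 167 regions 63 had the summit inside the gene (37.7%, 30.4 to 45.5), and 114 had it within 50 bp (68.3%, 60.6 to 75.2). Their median was 23 bp with quartiles of -27 and 78. They include 29 further summits beside a stronger summit of the same gene or genes, 8 of them nearest to a bound gene, whose median position was 167 bp. The other 138 are the strongest regions of candidate only genes. Of the 138, 60 had the summit inside the gene (43.5%, 35.1 to 52.2, which overlaps the interval of the optimal regions) and 107 had it within 50 bp (77.5%, 69.7 to 84.2, which does not). Single summits served 2 tRNA genes in 7 of the optimal and 17 of the other regions and never served more. Those 7 optimal regions included T23F1.t1 with T23F1.t2 and W09D6.t1 with W09D6.t2, so genes in a pair are not independent of each other.

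**Figure D2:**
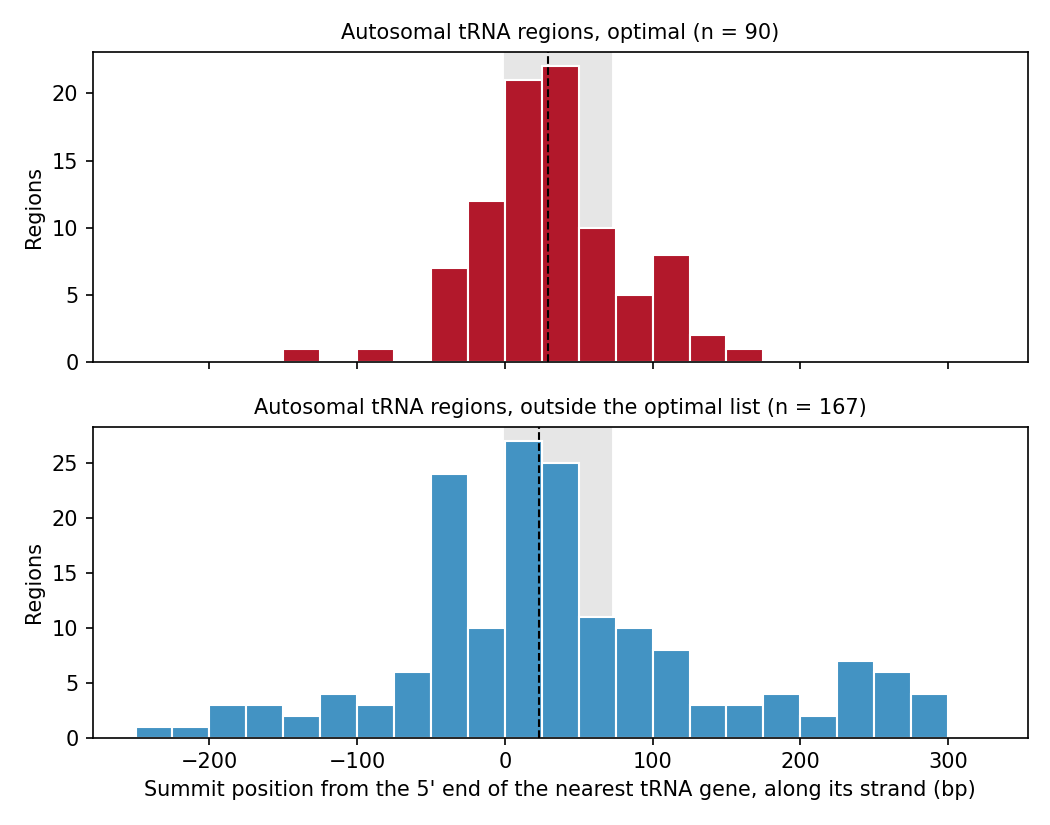
Number of autosomal tRNA regions by position of the summit from the 5′ end of the nearest tRNA gene (bp, along the strand of the gene, bins of 25 bp), for 90 optimal regions above and 167 regions outside the optimal list below, 29 of which are further summits beside a stronger one. The grey band marks a gene of 72 bases and the dashed line the median, 29.5 bp above and 23 bp below. The optimal regions stay close to the gene, while the others reach farther from it on both sides.

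A B box pattern was present in most genes, bound or not. The pattern GTTCNANNC was found in 94 of 97 bound genes (96.9%) and 225 of 239 unbound genes (94.1%), a difference of 2.76 points with an interval of -3.31 to 7.02. The stricter GTTCGANNC was found in 68% and 73.2%, a difference of -5.18 points (-16.3 to 5.15). Upstream windows of the same length held GTTCGANNC in 0 of 336 cases on either strand (exact upper bound 1.09%) and GTTCNANNC in 3.27%. A TTTT in the 20 bases after the gene was present in 97.9% of bound and 97.9% of unbound genes, and in 22.9% of the 20 bases before it. All 7 pairs of the acceptor stem were complete in 87.6% of bound and 87% of unbound genes. A motif match is a description of the letters and not of a site in use. An anticodon that reads as the annotated amino acid was found in all 97 bound genes and in 229 of 239 unbound genes.

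Gene families showed the same gene sequence in every class of binding. Among the autosomal genes there were 137 different gene sequences, and 35 of them occurred at 3 or more genes, 226 genes in all. In 27 of these 35 families some genes were bound and others were not, with 69 of their 196 genes bound. Over all autosomal tRNA genes 28.9% were bound. Whether the numbers of mixed, fully bound and unbound families differ from those that this share alone would give was not tested. In 21 families a bound gene stood beside one that had no candidate at all. All genes were bound in 1 family, tRNA-Arg with the anticodon TCG, whose 3 genes F35H8.t1, F56F3.t1 and F14B4.t1 ranked 171, 172 and 504. No gene was bound in 7 families with 27 genes. Among those 7 families were 7 genes for tRNA-Glu (TTC) and 5 for tRNA-Ala (TGC). They also held 3 genes of 83 bases for tRNA-Gly (CCC) and 3 of 85 bases without annotated intron for tRNA-Ile (TAT). These last 6 genes had no region in the pooled list or in either replicate. Of the 31-base words in the flanks, 31.4% to 55.7% occurred once in the genome at these Gly genes. At these Ile genes 94.8% to 100% did.

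Reads within identical genes cannot be assigned to 1 copy by the gene alone, and how the authors treated such reads is not given in the sources used here. Of all 31-base words in the gene and its flanks of 250 bp, a median of 89.9% occurred once in the genome for bound genes and 89.7% for unbound genes. In the gene body the median was 0% in each class. The flanks were not fully unique in 21 of 97 bound genes (21.6%, 13.9 to 31.2), 49 of 149 candidate only genes (32.9%) and 40 of 90 genes without candidate (44.4%, 34 to 55.3). The part of read placement in which copies have a region was not tested. Among genes with at least 80% unique words 31.8% were bound.

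The largest family, 18 tRNA-Gly genes with the anticodon TCC, had 5 bound, 9 candidate only and 4 without candidate. The 14 with a region ranked from 174 to 10201 with a median of 5401. The strongest was T04D3.t2 on chromosome I with a signal of 211, and the weakest were C12C8.t3 and C12C8.t4, which share a region with a signal of 54.5. Flanks of T04D3.t2 were fully unique, whereas those of Y51H4A.t3 and Y51H4A.t5, with no region in any list, were 49.8% unique. Y57G11B.t1 and Y43D4A.t1 had fully unique flanks and no pooled region, and were at ranks 642 and 8424 in replicate 2. Flanks of the bound genes F49D11.t1 and F49D11.t2 were 88.6% and 87.7% unique.

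The tRNA-Pro family of the printed pair had 4 bound genes among 11. T23F1.t2 ranked 190 with a signal of 205.9, in the region it shares with T23F1.t1. F02H6.t1 ranked 589 with 139.8, and W09D6.t1 and W09D6.t2, in the gene rsa-2, shared a region at rank 727 with 130.7. The 4 candidate only genes had signals from 42 to 77.4. ZK970.t1, in the gene clpp-1, had no region in any list, and R11G10.t1 and R11G10.t2, in avr-15, had regions only in replicate lists, at rank 7515 or weaker. In the identical-sequence family of 15 tRNA-Lys (CTT) genes 9 were bound, and in that of 13 tRNA-Asn (GTT) genes 1 was, beside 28.9% of all autosomal tRNA genes.

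**Figure D3:**
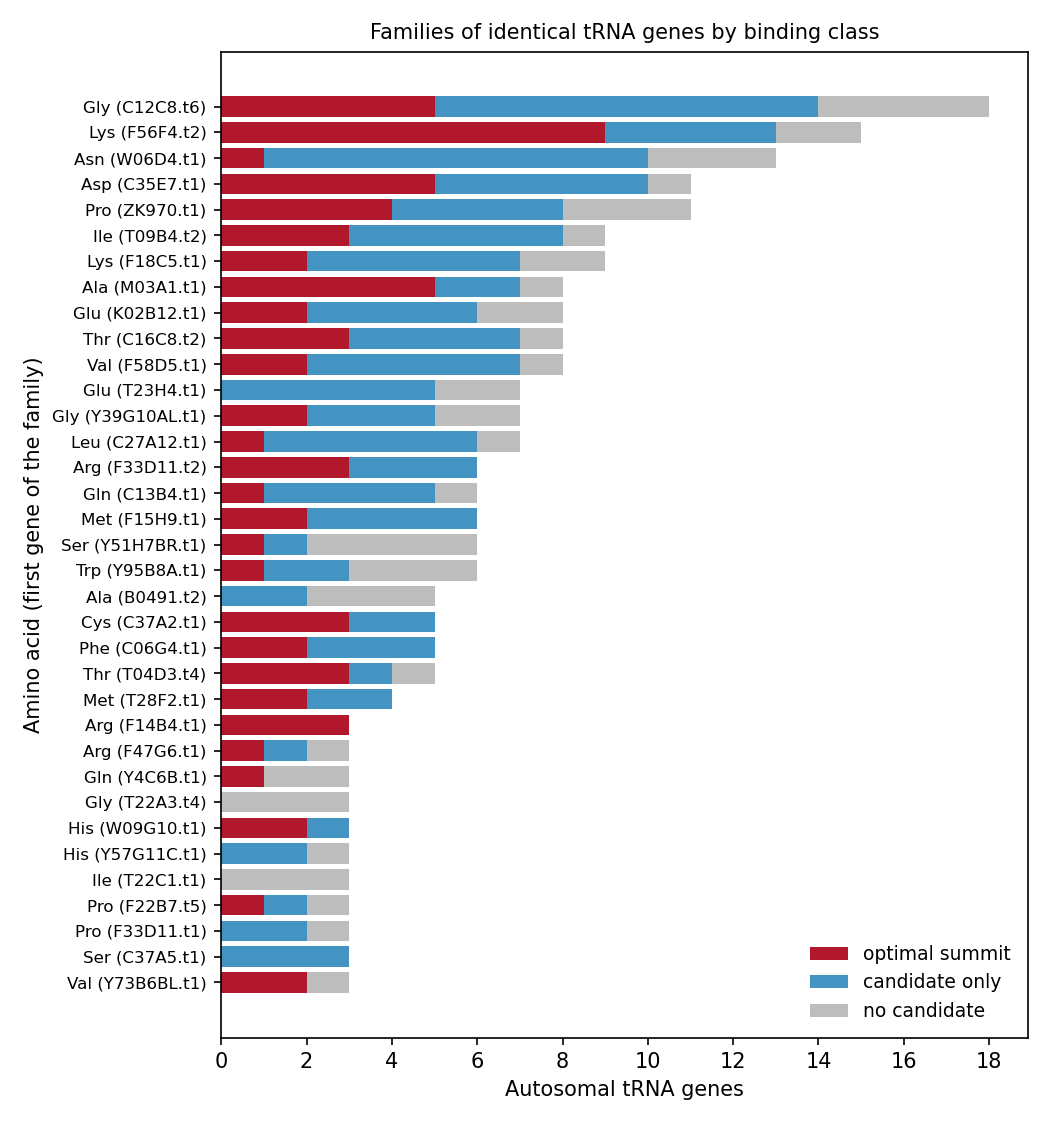
Number of autosomal tRNA genes (horizontal axis) in each of the 35 families of 3 or more identical genes, named by amino acid and the family's first gene. Red marks genes with an optimal summit, blue candidate only genes and grey genes without candidate. Most families hold more than 1 colour, and the Arg family of F14B4.t1 is the only one that is all red.

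Genes of most amino acids were bound in part. Bound shares were highest for Cys (4 of 6) and Arg (9 of 17, 52.9%, 27.8 to 77), followed by Asp (7 of 15), Thr (8 of 20) and Lys (11 of 28). They were lowest for Tyr (0 of 11, upper bound 28.5%), Asn (1 of 14, 7.14%, 0.181 to 33.9), Trp (1 of 7), Gln (2 of 12) and Glu (3 of 18). Over all autosomal tRNA genes the share was 28.9%. The intervals are wide, and each of them overlaps every other, so no amino acid is set apart from another. All 11 Tyr genes carry an intron, and 8 of them had a candidate, the strongest at rank 1320. Of the 6 other genes with an intron 2 were bound, F57F5.t1 (Ile) and C14B9.t2 (Leu), so that 2 of 17 genes with an intron were bound (11.8%, 1.46 to 36.4) against 95 of 319 without (29.8%). The difference was -18 points with an interval of -28 to 5.05, which includes 0.

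Single tRNA genes of known genetic use fell in all classes. The amber suppressor locus sup-5, a tRNA-Trp gene with the anticodon CCA, was bound at rank 430 with a signal of 155.4, and ranked 355 and 525 in the replicates. Of the genes identical to it, rtw-6 was candidate only at rank 1183, and sup-24 and sup-29 had no region in any list. K11H12.t1, the gene for the selenocysteine tRNA, was candidate only at rank 21965 with a signal of 37.5.

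**Figure D4:**
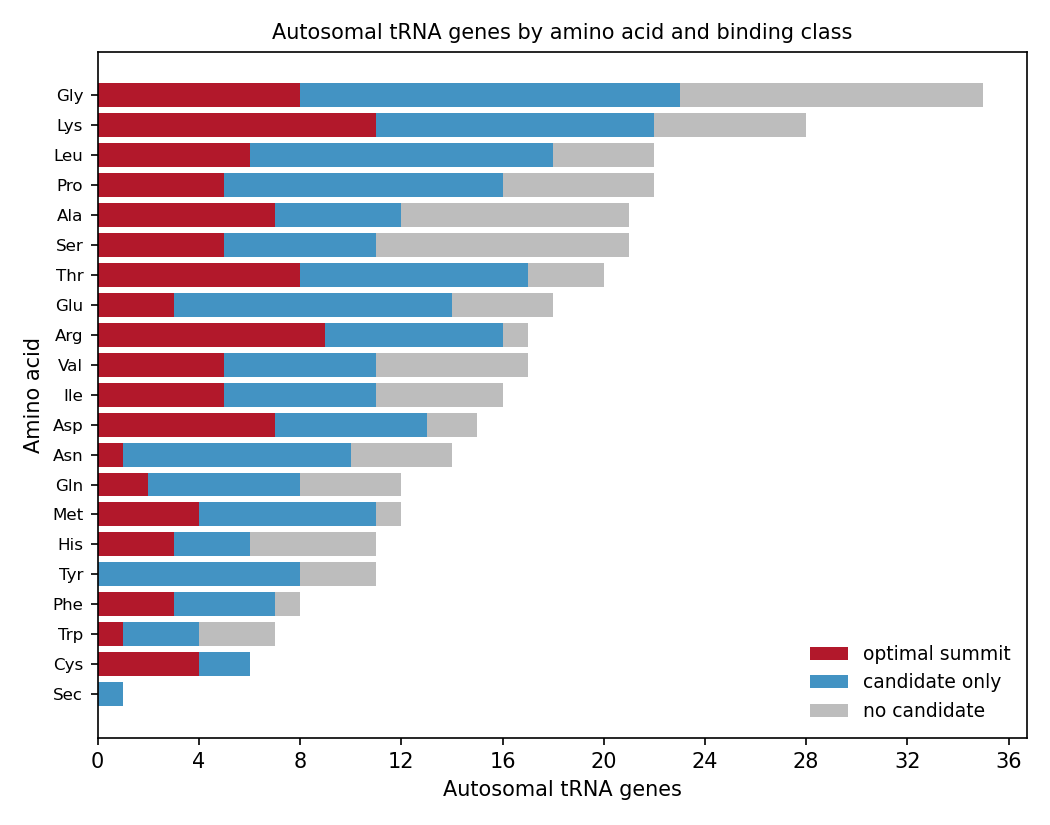
Number of autosomal tRNA genes (horizontal axis) by amino acid, divided into genes with an optimal summit (red), candidate only genes (blue) and genes without candidate (grey). Tyr has no red part among 11 genes, and Lys has the longest, with 11 of 28.

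Genes with a sequence of their own were bound less often in the pooled data. Single-copy genes, whose sequence occurs once among all annotated tRNA genes, made up 15 of 97 bound genes (15.5%) and 71 of 239 unbound genes (29.7%). The difference was -14.2 points with a Newcombe 95% interval of -22.7 to -4.16. It rested on the pooled list. With the strong regions of replicate 2 in place of the optimal list it was -7.93 points (-17.2 to 3.46), and with those of replicate 1 it was -6.43 (-15.8 to 4.78), and both intervals include 0. Among genes with a complete acceptor stem, a GTTCNANNC and a readable anticodon, 7 of 46 single-copy genes (15.2%) and 75 of 226 with 2 or more copies (33.2%) were bound. Single-copy genes that lack any of these were bound in 8 of 40 cases (20%). No candidate was found at 12 of 46 of the former single-copy genes (26.1%) and 22 of 40 of the latter (55%).

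Base composition beside the genes followed the classes. The GC content of the 250 bp flanks had a median of 40% at bound genes, 38.2% at candidate only genes and 35.7% at genes without candidate, with wide overlap (quartiles 37.2 to 42.6, 35.4 to 40.8 and 32.8 to 38.8). The medians of bound and unbound genes differed by 2.6 points, by 1.6 without replicate 2 and by 2.2 without replicate 1. Within the 27 families of identical genes that hold both, bound genes had the higher median GC in 19, the lower in 7 and the same in 1. In the same families the share of unique words in the flanks was higher at bound genes in 6, lower in 7 and equal in 14. The distance to the nearest protein-coding TSS was larger at bound genes in 14 and smaller in 13. Away from tRNA genes the order of GC content was not the same. Windows of 250 bp on each side of the summit had a median GC of 43.3% in optimal and 41.3% in other tRNA regions, against 40.3% in 781 optimal and 41.1% in 24548 other autosomal regions. Unlike the flanks, these windows can hold the tRNA gene, whose median GC was 59.7% in bound and 58.3% in unbound genes. Summits lay within 100 bp of the gene in 98.9% of optimal and 77.8% of other tRNA regions. The differences between these windows are thus in part built in. The part of GC content in amplification or read recovery was not tested.

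**Figure D5:**
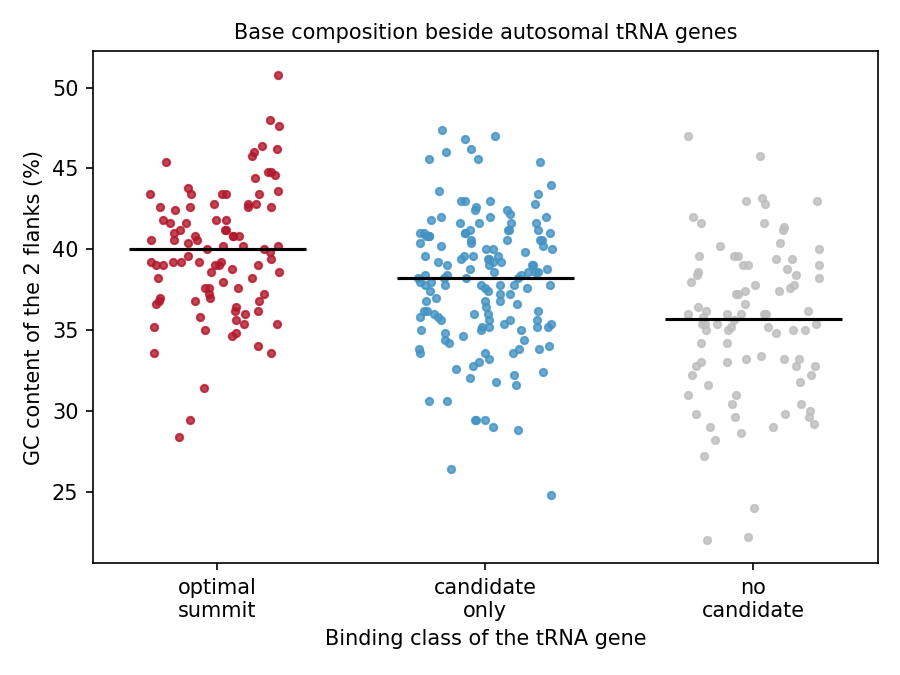
GC content (%) of the flanks of 250 bp on both sides of each autosomal tRNA gene, for bound genes (red), candidate only genes (blue) and genes without candidate (grey). Each point is a gene and the black line the median, at 40%, 38.2% and 35.7%, and the clouds overlap over most of their range.

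The intervals for neighbouring genes included 0 over the whole optimal list. A protein-coding TSS lay within 1000 bp of 49.5% of bound and 42.7% of unbound genes, a difference of 6.81 points (-4.81 to 18.3). With the stronger 50% of the optimal list alone it was 17.4 points (2.9 to 30.7). Genes inside a protein-coding gene were bound in 59 of 194 cases (30.4%), and those outside in 38 of 142 (26.8%). Inside such a gene the share was 35.9% on the opposite strand and 26.7% on the same strand, with intervals of 25.3 to 47.6 and 18.9 to 35.7. Genes with another tRNA gene within 500 bp were bound in 16 of 62 cases (25.8%), and the rest in 81 of 274 (29.6%).

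Chromosome IV had more genes without a pooled candidate than the other autosomes. Bound shares were 30.3% on chromosome I (20 of 66), 22.8% on II (13 of 57), 40.6% on III (26 of 64), 31% on IV (22 of 71) and 20.5% on V (16 of 78). On IV 33 of 71 genes had no candidate (46.5%, 34.5 to 58.7), against 57 of 265 on the other autosomes (21.5%, 16.7 to 27), a difference of 25 points (12.6 to 37.3). The shares without candidate were 27.3% on I, 19.3% on II, 14.1% on III and 24.4% on V. Chromosome IV was set apart after these shares were seen, and the intervals take no account of that choice. Without a region in the pooled list and in either replicate were 23 of 71 on IV (32.4%) and 35 of 265 on the others (13.2%), a difference of 19.2 points (8.41 to 31.3). The flanks of those 33 genes were not fully unique in 12 cases (36.4%), and those of the 57 others in 28 (49.1%). The replicates were not alike on IV. Of the 33 genes only Y54G2A.t1 had a region in replicate 1, and more had one in replicate 2. Bound genes with a candidate in replicate 2 alone were B0513.t1, F02H6.t1, Y7A9D.t2, Y65A5A.t1 and Y65A5A.t2 on IV. On other autosomes they were Y39A1A.t1, Y82E9BR.t1 and Y39B6A.t9. The part of this in the share without candidate was not tested.

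An optimal summit lay at 2 of the listed genes for the RNA polymerase III machinery. Of 25 listed genes for polymerase subunits, initiation factors and tRNA processing factors 22 matched an annotated name. From 1000 bp upstream to 500 bp downstream of a TSS 2 of the 22 held an optimal summit, 12 a candidate and 8 none. Over all protein-coding genes 3% held an optimal summit, and a count of 2 is too small for a comparison of the shares. The 2 were rpc-2, for a large subunit of the polymerase, at rank 329 with a signal of 169.6, and rpac-19, for a subunit shared with RNA polymerase I, at rank 372 with 163.1. Of the factors that act at tRNA genes, brf-1, a part of TFIIIB, was candidate only at rank 9385, and tbp-1, the TATA-binding protein, at rank 3506. The window of snpc-4 held none, although the region at rank 1 of the pooled list, with a signal of 2954.4, lies in that gene at 914 bp from its nearest TSS.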

How the data were processed

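The series holds ChIP-seq region lists of 2 replicates. The signal value per region is a score deposited by the authors with no stated scale. It served to order the regions of each list and to describe them. The −log10 q value deposited by the authors reached a ceiling of 2.98 in 45 of the 90 optimal tRNA regions and was not used for ranking. Summit offsets were also taken from the lists. Per the file manifests, candidates came from the alignments of each replicate, or of both, with the control, and the optimal list from the comparison of those lists. The aligner, peak caller, software versions, optimal-list threshold and read length were not given in the sources used here. Each candidate list holds 30000 regions, and depth is unknown.

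The ce11 lists were joined to Ensembl release 115 gene models of the same assembly (WBcel235) and to its RefSeq sequence. Amino acids came from RefSeq for 334 of 336 genes, and anticodons were read from the gene sequence, with 326 reading as that amino acid. Shares carry exact Clopper-Pearson 95% intervals and differences Newcombe intervals, computed with scipy 1.17.1 and numpy 2.4.6. No p-values were computed, since there is 1 group and genes and regions are not replicates. A replicate region was matched where it contained the pooled summit. The code was tested on simulated regions. Genes were named at the 12 strongest, 3 weakest optimal and 3 strongest other regions, in the largest mixed family, and as suppressor or selenocysteine genes. Genes named for a count, for identity to a named gene or for a region in a replicate list were chosen after their values were seen. The genes and lists were chosen with earlier results of these data known. Alternatives used single replicates, the stronger 50% of the optimal list, windows of 100 and 500 bp, other motifs and word lengths.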

Additional observations from a re-analysis of the deposited data

How the results depend on the processing

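With the stronger 50% of the optimal list, 19.5% of the tRNA regions were optimal, 16.1% of the genes were bound, the median summit lay at 34.5 bp, the median share of unique words differed by 0.552 points between bound and unbound genes, the flank GC by 2 points, and the share with a TSS within 1000 bp by 17.4 points. Some of these fall by construction, as fewer regions are counted. With as many of the strongest regions of 1 replicate in place of the optimal list, the optimal share ranged from 27.1% to 33.9%, the bound share from 22.9% to 24.4%, the median summit from 26 to 30 bp, the difference in unique words from 0.185 to 0.552 points, in flank GC from 1.6 to 2.2 points and in single-copy share from -7.93 to -6.43 points. The cause was not tested. With a window of 100 bp the flank GC differed by 2.1 points. The overlap of replicates was 21.1% with lists of 50% of the length and 76.7% with lists 2 times as long. The other 46 values stayed within the interval or spread of the reported value, or, for differences between shares, kept an interval on the same side of 0 or including it as reported. Among these, genes inside a protein-coding gene were bound at a share differing by -3.88 points from the others with the stronger 50% of the list and by -4.22 points without replicate 1, with intervals that include 0. The bound share in genes with no TSS within 500 bp (26.8%), with 80% or more unique words (31.8%) or with complete gene features (30.1%), the alternatives for flank GC, and the values for first summits, for replicate regions used once and for genes without a region in any list, are choices made after the data were seen. The contrast of chromosome IV with the other autosomes was also chosen after the data were seen. No paired analysis was possible because only 1 group exists. Depth per library is unknown, 2 replicates allow no test between conditions, and genes in identical families share reads that cannot be placed by the gene alone.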
